A study of Mus musculus with 8 samples.

Results

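Calcineurin is a phosphatase switched on by calcium and calmodulin, and the 9 genes described here encode its subunits (Ppp3ca, Ppp3cb, Ppp3r1), a pair of its modulators (Rcan1, Rcan2) and the transcription factors it acts on (Nfatc1, Nfatc2, Nfatc3, Nfatc4). They were taken by symbol from the gene name column of the count table, where each symbol occurred once, giving 9 of 48709 genes, and all 9 passed the filter on low counts that left 14712 genes to test. Poly(A) RNA came from whole gastrocnemius, a hindlimb muscle, of C57BL/6 mice aged 16 weeks. The control group (4 libraries, A to D) carried a floxed glucocorticoid receptor gene, Nr3c1, and the other group (4 libraries, E to H) was labelled GR(i)skm-/-, for deletion of the receptor in mature myofibres by crossing floxed mice with HSA-Cre-ERT2 mice, in which a human skeletal actin promoter drives a tamoxifen-inducible Cre. Other cell types of the muscle keep the receptor in that design. The labels give no tamoxifen dose or time, and the letters follow the order of the count columns.

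When calcium rises in a fibre, calmodulin binds the catalytic A subunit of calcineurin beside its calcium-binding B subunit, and the active enzyme removes phosphates from NFATc proteins, which then enter the nucleus. In skeletal muscle the pathway is known for favouring slow, oxidative fibre genes. Rcan proteins bind calcineurin and restrain it, and the short form of Rcan1 is itself transcribed from an internal NFAT-responsive promoter, so that its transcript is widely used as a readout of calcineurin activity. Nfatc1 to Nfatc4 are also expressed outside the fibre, in lymphocytes, endothelial cells and other cells of the tissue.

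Depth and labels were checked first. Totals ran from 36680510 to 52200305 counts per library, and muscle fibre markers (6 of 6 detected) summed to between 133300 and 188900 CPM (counts scaled to library size, with TMM factors) in every library. Nr3c1 was at 83.2 to 90.0 CPM in the control libraries and lower in F (38.6 CPM) and H (42.8 CPM). E stood at 87.1 CPM and G at 96.7 CPM, so by this gene 2 libraries labelled knockout go against their label. Every direction below is that of the libraries labelled knockout. By the Schwann cell marker sums given below, E (60.6 CPM) and G (56.7 CPM) lay with F and H, under every control library. The cause of the Nr3c1 levels in E and G was not tested. T cell markers summed to 11.5 CPM in A, 12.1 in E and 11.7 in G and to between 0.394 and 1.56 CPM in the other 5 libraries, and B cell markers to 26.2, 17.6 and 17.0 CPM in A, E and G against 0.484 to 2.71 CPM. In whole muscle, fewer cells of a type and less RNA per cell cannot be told apart.

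Promoters were available in RefSeq tables (GRCm38.p6, the assembly of mm10) for 7 of the 9 genes. The windows below run from 250 bases before to 50 bases after an annotated start, 5′ to 3′ on the gene's strand, and capitals mark the NFAT core GGAAA or its reverse complement TTTCC. Ppp3cb and Ppp3r1 are shown because their levels followed each other most closely across libraries, and Nfatc3 because it passed the test below. Rcan1 is shown because its 2 starts differ in NFAT cores, as do the starts of Nfatc2, Nfatc3 and Rcan2.
Ppp3cb, chr14:20546524-20546823, minus strand: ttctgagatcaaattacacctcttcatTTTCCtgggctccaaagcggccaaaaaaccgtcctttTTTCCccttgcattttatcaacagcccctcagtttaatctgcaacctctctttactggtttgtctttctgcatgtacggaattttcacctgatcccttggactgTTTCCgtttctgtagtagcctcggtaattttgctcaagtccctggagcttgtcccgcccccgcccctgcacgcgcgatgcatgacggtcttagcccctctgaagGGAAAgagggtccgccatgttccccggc
Ppp3r1, chr11:17159048-17159347, plus strand: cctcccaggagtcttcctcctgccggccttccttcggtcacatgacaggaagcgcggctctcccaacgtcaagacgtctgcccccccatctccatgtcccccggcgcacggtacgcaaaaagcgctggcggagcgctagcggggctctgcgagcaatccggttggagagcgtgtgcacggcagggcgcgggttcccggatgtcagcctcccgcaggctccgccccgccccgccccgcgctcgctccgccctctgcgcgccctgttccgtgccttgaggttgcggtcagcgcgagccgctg
Nfatc3, chr8:106058568-106058867, plus strand, 1 of 2 annotated starts: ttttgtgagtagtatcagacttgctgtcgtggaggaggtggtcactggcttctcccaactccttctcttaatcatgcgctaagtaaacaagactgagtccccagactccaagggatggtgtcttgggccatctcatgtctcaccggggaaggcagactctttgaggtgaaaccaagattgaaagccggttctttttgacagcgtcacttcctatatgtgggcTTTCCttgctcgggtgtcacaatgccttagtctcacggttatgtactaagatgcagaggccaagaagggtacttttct
Rcan1, upstream start, chr16:92466120-92466419, minus strand: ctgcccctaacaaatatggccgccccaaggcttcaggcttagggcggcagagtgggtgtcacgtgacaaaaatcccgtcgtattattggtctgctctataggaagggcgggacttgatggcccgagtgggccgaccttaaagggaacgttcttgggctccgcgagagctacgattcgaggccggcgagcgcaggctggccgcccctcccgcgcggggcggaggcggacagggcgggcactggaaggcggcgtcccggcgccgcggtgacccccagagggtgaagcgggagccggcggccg
Rcan1, internal start, chr16:92400029-92400328, minus strand: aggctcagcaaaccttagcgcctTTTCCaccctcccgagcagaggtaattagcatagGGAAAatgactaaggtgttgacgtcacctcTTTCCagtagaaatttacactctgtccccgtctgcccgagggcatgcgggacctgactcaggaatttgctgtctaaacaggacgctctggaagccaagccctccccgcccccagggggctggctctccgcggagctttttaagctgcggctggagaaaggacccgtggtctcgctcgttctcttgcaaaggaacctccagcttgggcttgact
The internal Rcan1 window held 3 NFAT cores and the upstream window held 0, with a GC content of 56.3% and 67.7%, respectively. The Ppp3cb window held 4, the Nfatc3 window shown 1 and the Ppp3r1 window 0. The other Nfatc3 window, at 68.3% GC, held 0. Of the further windows not shown, those of Nfatc2 held 3 and 1, that of Nfatc4 3 and those of Rcan2 2, 0 and 0. At least 1 core occurred in 61.3% of the 32851 promoter windows in the table, at least 3 in 9.42% and at least 4 in 2.65%. The palindrome bound by the glucocorticoid receptor was searched as GNACA and TGTNC with 3 bases between them (the same on both strands). It occurred in 0 of the 5 windows shown and in 0.475% of all windows. A match is a description of the letters and not evidence of binding.

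Across the 9 genes, Nfatc3 alone differed between the groups by the edgeR quasi-likelihood test, where it rose, and the other 8 did not pass. That is 11.1% of the 9 genes, where 8.45% of all genes tested were called in either direction with 4.04% higher and 4.41% lower. Nfatc3 was also the only gene of the 9 whose libraries did not overlap between the groups, a share of 11.1% beside 16.7% of all genes (7.68% higher and 9.02% lower). None of the 9 was called lower by edgeR, DESeq2 or limma-voom, with 0 lower at an unadjusted p under 0.05. The fitted log2 fold change (labelled knockout over control) was above 0 for 6 genes and below 0 for 3, with a median of 0.25 beside -0.01 over all genes tested, and 5 of the 9 had an unadjusted p under 0.05, as had 27.1% of all genes.

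**Figure D1:**
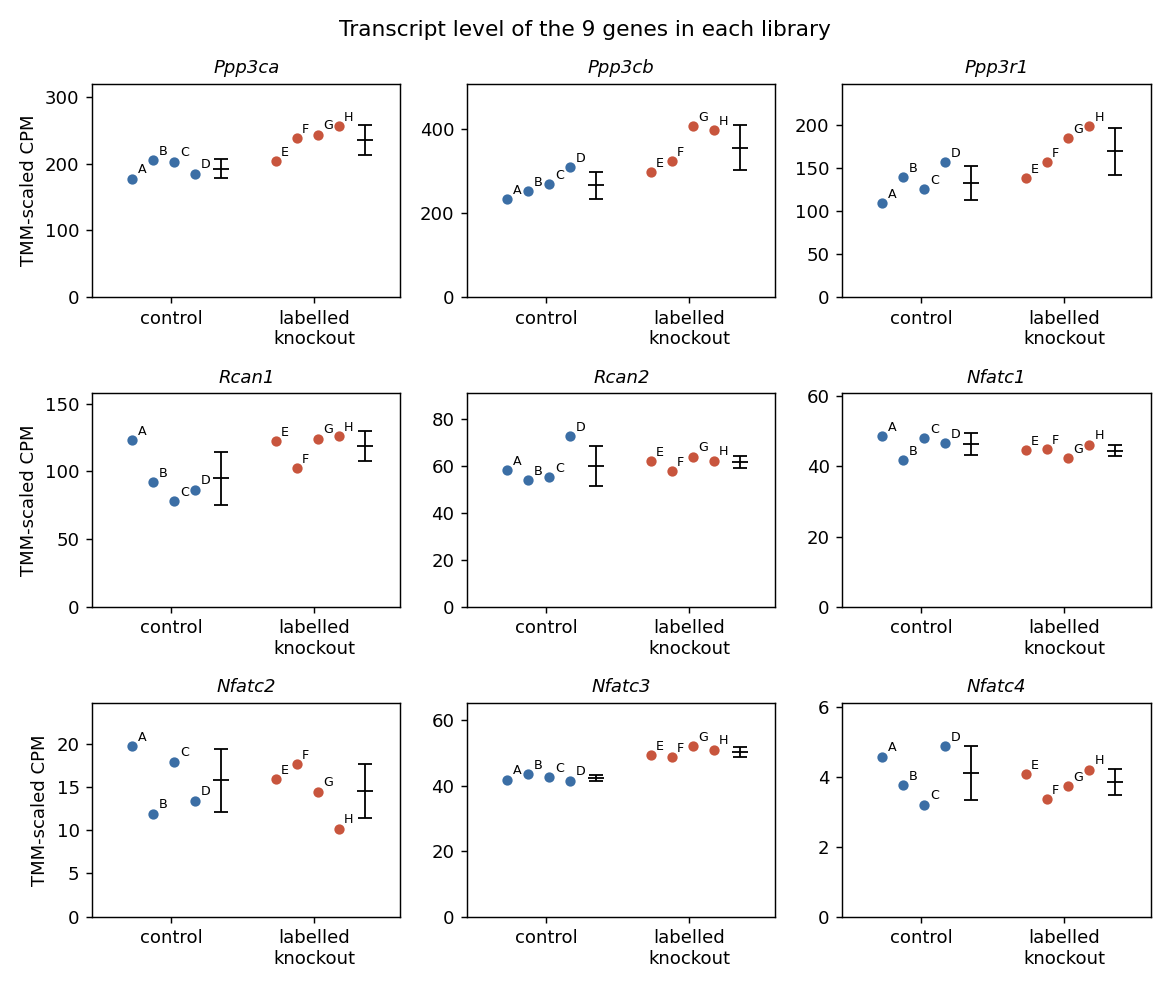
TMM-scaled CPM (vertical axis, from 0) of the 9 genes in control libraries A to D and in libraries E to H labelled knockout; points are libraries and the horizontal bars with whiskers are group means ± SD (n = 4 each). The groups are apart in Nfatc3, at 41.6 to 43.6 against 48.8 to 52.2 CPM, and overlap in the other 8 genes.

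The calcineurin A subunits were the most strongly counted of the 9 genes. Ppp3cb (ENSMUSG00000021816, chromosome 14, 20499364 to 20546573, minus strand), the beta catalytic subunit, was at 232, 252, 268 and 308 CPM in the control libraries (A to D) and at 297, 322, 406 and 396 CPM in E to H. Control library D lay above E, and G and H stood above all others. The means were 265 ± 32.3 and 355 ± 53.8 CPM (SD, n = 4 each). The fitted log2 fold change was 0.42 ± 0.12 (SE, 95% interval 0.16 to 0.68), and the edgeR adjusted p = 0.0506 did not pass the threshold of 0.05. DESeq2 (0.43, adjusted p = 0.00718) and limma-voom (adjusted p = 0.0428) called Ppp3cb higher.

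Ppp3ca (ENSMUSG00000028161, chromosome 3, 136670124 to 136937727, plus strand), the alpha catalytic subunit, was at 177, 206, 203 and 185 CPM in A to D and at 204, 239, 244 and 256 CPM in E to H. Only library E reached into the control range. The log2 fold change was 0.29 ± 0.08 (95% interval 0.11 to 0.47, edgeR adjusted p = 0.0548). It was called higher by DESeq2 (adjusted p = 0.0115) and limma-voom (adjusted p = 0.0369). The gamma catalytic subunit Ppp3cc, which is not among the 9 genes, was at 19.5 ± 0.516 and 19.7 ± 0.659 CPM, a log2 fold change of 0.01 ± 0.06 that did not pass (edgeR adjusted p = 0.912).

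Ppp3r1 (ENSMUSG00000033953, chromosome 11, 17159263 to 17200375, plus strand), the calcium-binding regulatory B subunit, was at 109, 139, 126 and 157 CPM in A to D and at 138, 157, 185 and 198 CPM in E to H. Library E lay within the control range, F was level with its top (control library D), and G and H lay above it. Its log2 fold change was 0.35 ± 0.13 (95% interval 0.06 to 0.65, edgeR adjusted p = 0.119). Its exons share 462 bases with Wdr92 on the same strand, which had 3369 counts over the 8 libraries beside 52972 for Ppp3r1. The testis form of the B subunit, Ppp3r2, had 0 counts in every library.

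Ppp3cb and Ppp3r1 ranked the libraries nearly alike. After group means of log2 CPM were subtracted, Pearson's r between them was 0.92 and Spearman's rho 0.95 over the 8 libraries, the highest r of the 36 pairs among the 9 genes. For Ppp3ca with Ppp3r1 r was 0.66, and for Ppp3ca with Ppp3cb it was 0.56. These values describe 8 libraries that share depth and base-composition differences. With the GC trend of each library removed, r for Ppp3cb with Ppp3r1 was 0.77. It was then 0.47 for Ppp3ca with Ppp3r1 and 0.27 for Ppp3ca with Ppp3cb.

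Levels of different genes were compared per kilobase of exon (CPM divided by the summed length of the gene's annotated exons). In the control libraries the order was Ppp3r1 (41.1 ± 6.23 CPM per kilobase), Rcan1 (30.8 ± 6.35), Ppp3cb (30.1 ± 3.67), Ppp3ca (19.3 ± 1.39), Rcan2 (13.7 ± 1.97), Nfatc1 (6.20 ± 0.417), Nfatc3 (3.62 ± 0.0776), Nfatc2 (1.49 ± 0.348) and Nfatc4 (0.707 ± 0.132). Ppp3r1 and Rcan1, and Rcan1 and Ppp3cb, overlapped in their control libraries, while each later neighbour lay below the one before it in every control library. With the length of the longest transcript instead, Ppp3cb came first at 69.2 ± 8.43 CPM per kilobase and Ppp3r1 next at 46.4 ± 7.04.

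Ppp3cb was the leading catalytic subunit in every library. It gave 51.4% to 58.2% of the summed per-kilobase level of Ppp3ca, Ppp3cb and Ppp3cc in control and 54.4% to 59.7% in the other group. Ppp3ca gave 30.8% to 37.1% and 31.7% to 35.6%, and the groups overlapped for both. The remaining share, that of Ppp3cc, was 11.7% ± 0.710 in control and 9.46% ± 1.30 in the libraries labelled knockout (SD, n = 4 each). The highest of the latter, E, lay just below the lowest control, D. With the length of the longest transcript instead, E (6.228%) lay above D (6.222%), so the groups overlapped. The shares are descriptions and were not tested.

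**Figure D2:**
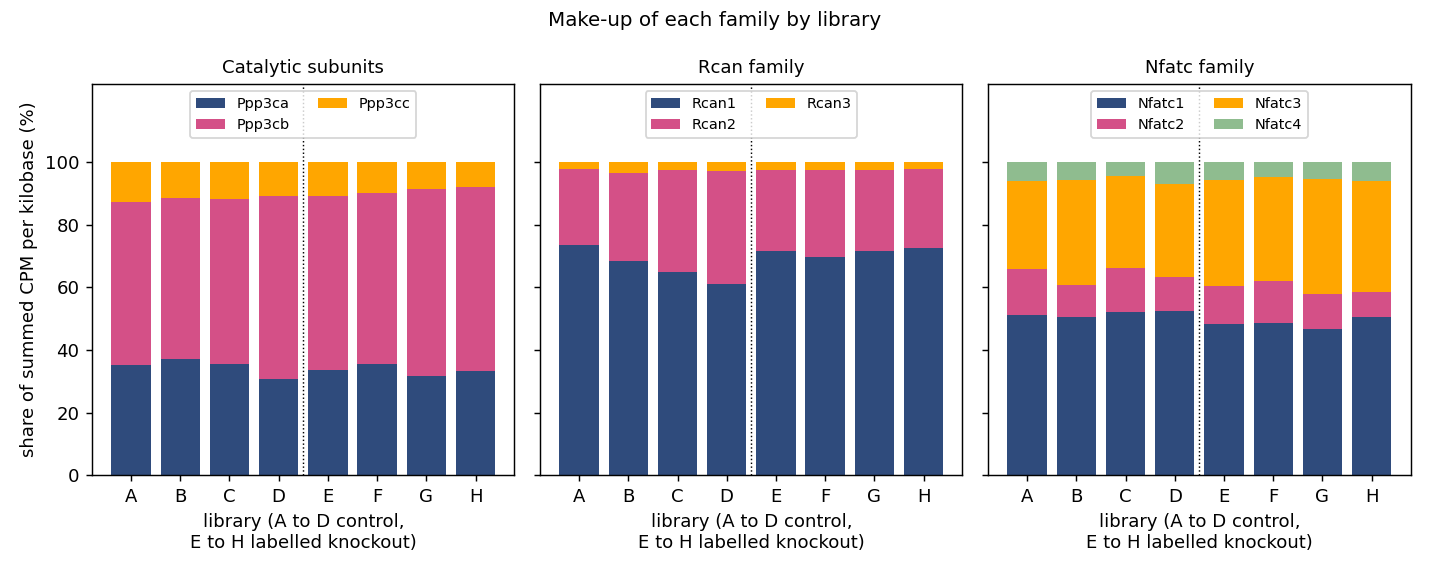
Share (%) of the summed CPM per kilobase taken by each gene of the catalytic subunit, Rcan and Nfatc families in each library, as stacked bars; the first 4 bars of each panel are control libraries and the last 4 are those labelled knockout. By this measure Ppp3cb, Rcan1 and Nfatc1 take the largest share of their families in all 8 libraries, with Nfatc1 at 46.7% to 52.5%. The lead of Nfatc1 depends on length. Without length correction its mean share was 42.6% in control and 39.3% in the other group, beside 39.2% and 44.5% for Nfatc3.

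Neither modulator passed the test with all 8 libraries. Rcan1 (ENSMUSG00000022951, chromosome 16, 92391953 to 92470867, minus strand), a calcineurin-binding protein that restrains the phosphatase, was at 123, 92.0, 78.1 and 86.4 CPM in A to D and at 122, 102, 124 and 126 CPM in E to H. Control library A lay with E, G and H, and F lay between them and the other controls. The means were 94.9 ± 19.6 and 119 ± 11.1 CPM, a log2 fold change of 0.32 ± 0.13 (95% interval 0.03 to 0.61) that did not pass (edgeR adjusted p = 0.144). Without library A it was 0.475 ± 0.09 and passed (edgeR adjusted p = 0.0264), and without libraries E and G it was 0.27 ± 0.18 (adjusted p = 0.439). A, E and G are the libraries with the T and B cell markers given above. H, at the highest Rcan1, had a T cell marker sum of 0.745 CPM, and the part of these cells in the Rcan1 values was not tested. Reads from the upstream and internal starts were counted together, so the short form cannot be told apart.

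Rcan2 (ENSMUSG00000039601, chromosome 17, 43801351 to 44039516, plus strand), its relative in muscle, heart and brain, was at 58.0, 53.9, 55.1 and 72.5 CPM in A to D and at 61.9, 57.7, 63.8 and 62.1 CPM in E to H. All 4 libraries labelled knockout lay inside the control range, whose top was library D. The log2 fold change was 0.04 ± 0.09 with a 95% interval of -0.17 to 0.24 (edgeR adjusted p = 0.836). Rcan1 took 60.9% to 73.3% of the summed per-kilobase level of the Rcan family in control and 69.8% to 72.5% in the other group. Rcan3, the remaining family member and not among the 9 genes, took 2.27% to 3.42% in all libraries.

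Of the transcription factors, Nfatc3 rose. Nfatc3 (ENSMUSG00000031902, chromosome 8, 106058840 to 106130537, plus strand), an NFAT known from T cell development and from muscle, was at 41.8, 43.6, 42.7 and 41.6 CPM in A to D and at 49.4, 48.8, 52.2 and 51.0 CPM in E to H. Every library labelled knockout was above every control library, and this held for E and G as for F and H. The means were 42.4 ± 0.910 and 50.3 ± 1.55 CPM (SD, n = 4 each). The fitted log2 fold change was 0.25 ± 0.06 (95% interval 0.13 to 0.37, a 1.19-fold rise), with an edgeR adjusted p = 0.0223. The rank of its p-value among all genes tested was 590.

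The size of the Nfatc3 difference held in other fits, but its call often did not. It ended without A, C, D, G or H (log2 fold change 0.23 to 0.27 with any 1 library left out, highest adjusted p = 0.0848), without both E and G (0.23, adjusted p = 0.143, where 1.49% of all genes were called) and with the GC trend of each library removed (0.19, adjusted p = 0.0607). It was called by DESeq2 (adjusted p = 0.000487) and limma-voom (0.0147). Exons of Nfatc3 share 219 bases with Esrp2 on the opposite strand, which had 25 counts over the 8 libraries beside 16049 for Nfatc3.

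Nfatc1 (ENSMUSG00000033016, chromosome 18, 80606205 to 80713071, minus strand), the NFAT most closely tied to slow fibre activity, was at 48.6, 41.8, 48.1 and 46.7 CPM in A to D and at 44.7, 44.9, 42.3 and 46.2 CPM in E to H. All 4 libraries labelled knockout lay inside the control range. The log2 fold change was -0.06 ± 0.07 with a 95% interval of -0.20 to 0.09 (edgeR adjusted p = 0.619).

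Nfatc2 (ENSMUSG00000027544, chromosome 2, 168476410 to 168601657, minus strand), a T cell NFAT with a known role in the growth of young myofibres, was at 19.7, 11.9, 17.9 and 13.4 CPM in A to D and at 15.9, 17.6, 14.4 and 10.2 CPM in E to H. Both groups spread widely and overlapped. Its log2 fold change of -0.12 ± 0.20 had the widest 95% interval of the 9 genes, -0.57 to 0.34 (edgeR adjusted p = 0.749). Of the libraries with high T and B cell markers, A had the highest Nfatc2, while E and G lay between the extremes, and the part of those cells in the values was not tested.

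Nfatc4 (ENSMUSG00000023411, chromosome 14, 55823144 to 55833943, plus strand), a family member best known from heart and brain, was the lowest of the 9 genes. It was at 4.57, 3.76, 3.21 and 4.89 CPM in A to D and at 4.07, 3.36, 3.74 and 4.21 CPM in E to H, from 1370 counts in all. The groups overlapped, and its log2 fold change was -0.10 ± 0.15 with a 95% interval of -0.42 to 0.23 (edgeR adjusted p = 0.711).

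**Figure D3:**
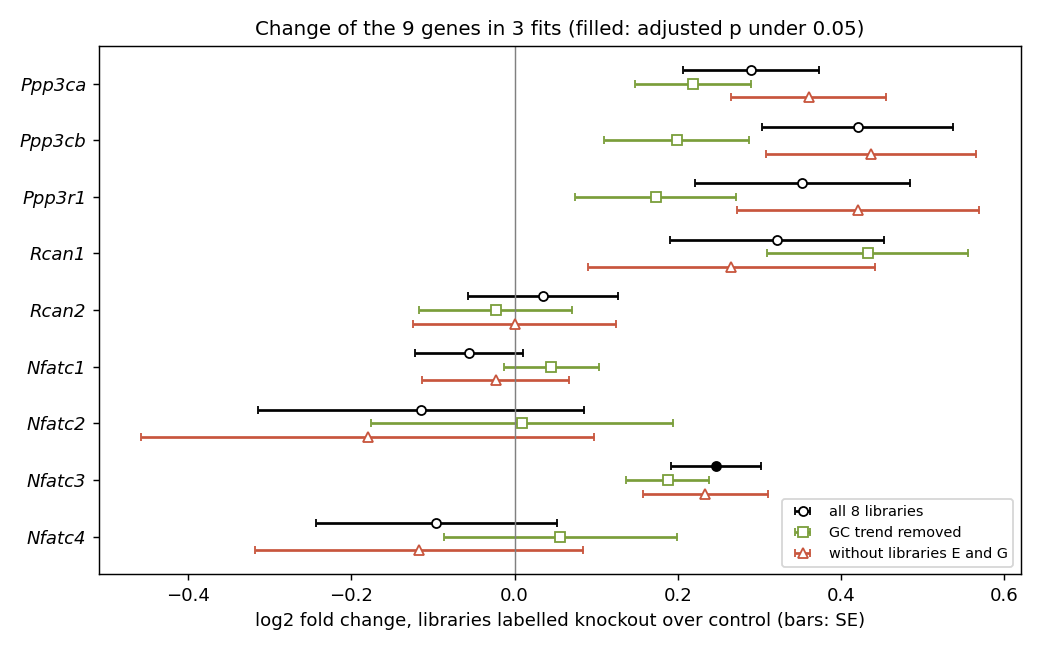
Log2 fold change of the 9 genes (horizontal axis, labelled knockout over control, bars are SE) with all 8 libraries (circles), with each library's GC trend removed (squares) and without libraries E and G (triangles); filled symbols passed the edgeR test. Nfatc3 with all 8 libraries is the only filled symbol, and Ppp3cb goes from 0.42 to 0.20 with the GC trend removed.

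Over all genes, differences between the groups went with the base composition of the transcripts. The median log2 fold change over all genes fell from 0.19 in the lowest of 5 equal classes of transcript GC content to -0.15 in the highest, and 10.99% of genes were called higher in the lowest class beside 0.477% in the highest. Transcripts of Ppp3cb (39.8% GC) and Ppp3r1 (41.4%) lay in the lowest class, and those of Ppp3ca (45.4%), Nfatc3 (45.9%) and Rcan2 (45.9%) in the next. Rcan1 (54.5%), Nfatc1 (53.7%) and Nfatc2 (55.3%) lay in the fourth class and Nfatc4 (58.8%) in the highest.

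With each library's GC trend removed, the log2 fold change of Ppp3cb went from 0.42 to 0.20 ± 0.09 (adjusted p = 0.234), that of Ppp3r1 from 0.35 to 0.17 ± 0.10 (adjusted p = 0.349) and that of Ppp3ca from 0.29 to 0.22 ± 0.07 (adjusted p = 0.11), by edgeR. Rcan1 moved the other way, from 0.32 to 0.43 ± 0.12 (adjusted p = 0.0779). Nfatc1, Nfatc2 and Nfatc4, below 0 before, were then at 0.05, 0.01 and 0.06, and Rcan2 at -0.02. In that fit 0 of the 9 genes were called, with 4 at an unadjusted p under 0.05, and 4.64% of all genes were called (2.19% as higher).

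**Figure D4:**
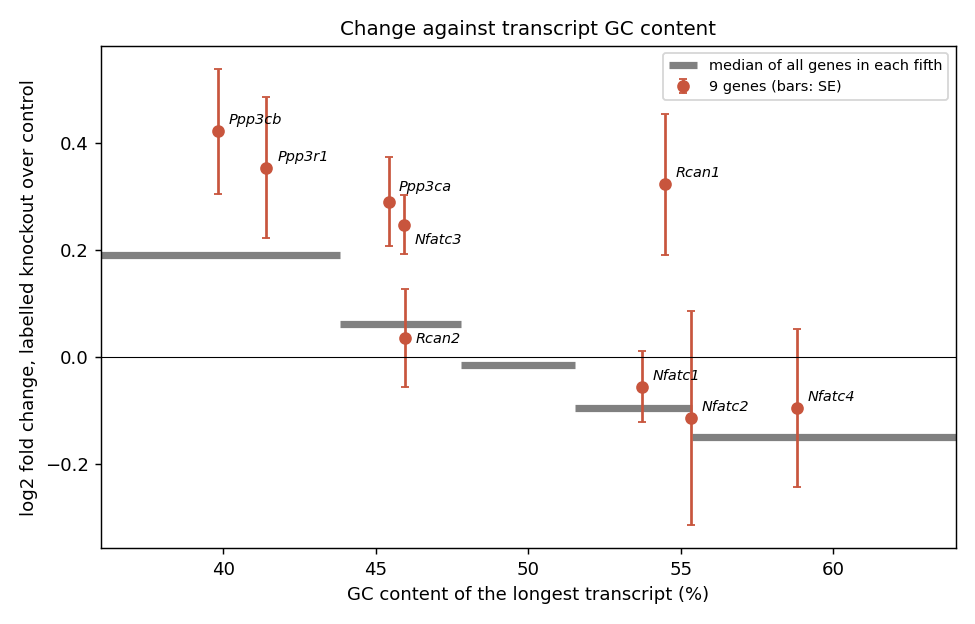
Log2 fold change (vertical axis, labelled knockout over control, bars are SE) of the 9 genes against the GC content (%) of their longest transcript; grey bars are the median of all genes tested in 5 equal classes of GC content, with the outer classes running beyond the axis. The grey bars fall from 0.19 to -0.15. Ppp3cb, Ppp3r1, Ppp3ca, Nfatc3, Rcan1, Nfatc1 and Nfatc4 lie above the grey bar of their class, and Rcan2 and Nfatc2 lie below it.

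The genes whose library pattern was most like that of the 2 members with the smallest p were found by Pearson's correlation of log2 CPM over the 8 libraries, among 10572 genes averaging at least 1 in log2 CPM. For Nfatc3 they were Rasd2 (r = 0.987), Kdm7a (0.985) and Rictor (0.985), and with group means subtracted Atp11b, Nbas and Ppp1r14c (0.947 to 0.95). For Ppp3cb they were Ube2q2 (0.988), Syncrip (0.985) and Orc4 (0.983), and with group means subtracted mt-Nd1, Atp5l and Ube2g1 (0.983 to 0.984). These were picked as the highest of many correlations over few libraries and are descriptions.

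Other genes of the pathway changed in both directions. Of 32 such genes listed, 31 were tested, of which 3 rose, 3 fell and 25 did not pass. Over all genes tested, 4.04% were called higher and 4.41% lower. The median of the list was 0.06 on the log2 scale, beside -0.01 over all genes tested. Whether the list differs from all genes was not tested. Among those that rose, Akap6, an anchoring protein that binds calcineurin in heart muscle, went from 82.8 ± 7.84 to 108 ± 6.58 CPM (a log2 difference of 0.38 ± 0.08, edgeR adjusted p = 0.0172). Mef2a, a transcription factor that acts with calcineurin signals, rose from 130 ± 5.32 to 173 ± 17.2 CPM (0.41 ± 0.08, edgeR adjusted p = 0.0119).

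Among those that fell, Myoz2, the slow-fibre calsarcin that tethers calcineurin at the Z-disc, had the largest change (123 ± 11.5 to 71.2 ± 14.5 CPM, a log2 difference of -0.79 ± 0.13, edgeR adjusted p = 0.00895). The fast-fibre calsarcin Myoz1 was at 2386 and 1931 CPM and did not pass (-0.31 ± 0.10, edgeR adjusted p = 0.0887). Dyrk1b, a kinase related to those that return phosphate to NFAT, fell from 54.6 ± 5.81 to 42.3 ± 2.02 CPM (-0.37 ± 0.08, edgeR adjusted p = 0.0206). Orai1, the pore of store-operated calcium entry, fell from 25.9 ± 1.92 to 21.2 ± 0.918 CPM (-0.29 ± 0.07, edgeR adjusted p = 0.0335). The calcium sensor Stim1, at 254 and 262 CPM, and the NFAT kinase gene Gsk3b, at 65.0 and 74.6 CPM, did not pass.

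The calls of these 5 genes all ended without libraries E and G (adjusted p = 0.0697 to 0.12). In that fit 1.49% of all genes were called, beside 8.45% with all 8 libraries. The log2 fold changes there were 0.41 (Akap6), 0.41 (Mef2a), -0.72 (Myoz2), -0.41 (Dyrk1b) and -0.33 (Orai1). With the GC trend removed the calls of Akap6, Mef2a, Dyrk1b and Orai1 ended (0.27, 0.25, -0.20 and -0.14). Leaving out 1 library ended the calls of Akap6 (C, F or G, highest adjusted p = 0.062), Dyrk1b (C, F, G or H, 0.0714) and Orai1 (any but B or E, 0.0955), and did not end that of Mef2a or Myoz2. Scaling to library size alone also ended the call of Orai1 (-0.21, adjusted p = 0.0712).

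Fibre-type genes were listed because calcineurin and NFAT are known to favour the slow programme. The slow list held 13 genes, among them Myh2, whose IIa myosin is that of fast oxidative fibres. Myoz2 fell and 12 did not pass by edgeR (4 lower at an unadjusted p under 0.05), while DESeq2 and limma-voom each called 3 lower. None was called higher by edgeR, DESeq2 or limma-voom, with 0 higher at an unadjusted p under 0.05 in each. The median log2 fold change of the list was -0.54, with all 13 below 0, beside a median of -0.01 over all genes tested. Over all genes tested, edgeR called 4.04% higher and 4.41% lower. The slow myosin gene Myh7 was at 308 ± 194 CPM in control and 199 ± 68.4 CPM in the other group (edgeR adjusted p = 0.472), and the IIa myosin gene Myh2 at 2370 ± 443 and 1788 ± 264 CPM (edgeR adjusted p = 0.0931). The median of the list was -0.22 without control library D and -0.28 without E and G, and the call of Myoz2 ended in the latter fit. Of 11 fast fibre genes, Mylpf (-0.52 ± 0.12, edgeR adjusted p = 0.0262) and Casq1 (-0.30 ± 0.08, edgeR adjusted p = 0.0433) fell and 9 did not pass. The median of the fast list was -0.22, with 10 genes below 0 and 4 lower at an unadjusted p under 0.05 by edgeR. DESeq2 and limma-voom each called 3 fast fibre genes lower, the same number as for the slow list. The edgeR calls of Mylpf and Casq1 ended with the GC trend removed (-0.44 and -0.23) and without libraries E and G (-0.43 and -0.24). Without 1 library, Mylpf lost its call on leaving out A, C, G or H (adjusted p up to 0.0788) and Casq1 on leaving out any but D (up to 0.137), and Casq1 also lost it with scaling to library size alone (-0.22, adjusted p = 0.081).

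**Figure D5:**
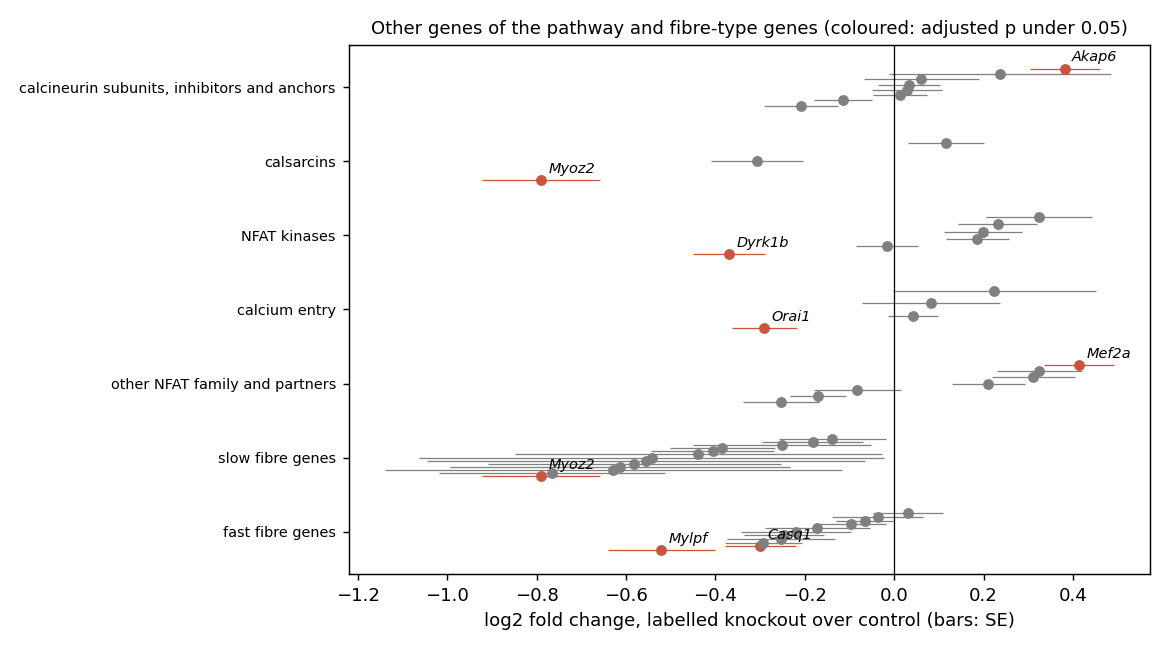
Log2 fold change (horizontal axis, labelled knockout over control, bars are SE) of other genes of the calcineurin and NFAT pathway and of slow and fast fibre genes, by list; coloured points with names passed the edgeR test, and 3 genes of the pathway are not drawn. Akap6 and Mef2a lie above 0, and Myoz2 (in 2 lists), Dyrk1b, Orai1, Mylpf and Casq1 lie below.

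Markers of other cells differed between the groups beside these results. The summed level of Schwann cell markers was 126 to 227 CPM in control and 39.6 to 60.6 CPM in the other group (5 of 5 called lower), that of smooth muscle markers 151 to 184 and 77.3 to 109 CPM (4 of 4 lower) and that of endothelial markers 313 to 340 and 281 to 307 CPM (2 of 5 lower). The endothelial marker Kdr lay mostly the other way, at 55.6 to 66.3 and 64.5 to 79.2 CPM. Tendon markers summed to 141 to 246 and 107 to 130 CPM (1 of 3 lower). Most of that sum was Fmod, at 129 to 230 and 95.5 to 118 CPM, while Scx and Tnmd overlapped between the groups. Mast cell markers summed to 4.36 to 9.93 and 10.3 to 14.8 CPM (3 of 4 higher), and macrophage markers to 32.2 to 53.2 and 48.1 to 68.7 CPM (2 of 6 higher). Of the fibro-adipogenic markers 1 of 4 was called higher and 1 lower, and 2 of the 6 muscle fibre markers were lower. Their part in the levels of the 9 genes was not tested.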

How the data were processed

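RNA sequencing measured gene expression in 8 libraries, 4 per group, prepared with a stranded dUTP kit, per the labels' protocols. The deposited table holds raw read counts, 1 row per Ensembl gene. Per the submitters' processing notes and their design text, the authors used bcl2fastq 2.17.1.14, aligned reads to mm10 with TopHat version 2 and counted with HOMER. The annotation release and strand setting were not given in the sources used here. Since column numbers occur in no label, columns were assigned to groups by name. Separate mice are not stated, so p-values rest only on the spread from library to library, which may be technical. Over all 28 pairs of libraries, within and between groups, the lowest chi-square/df was 13.1 (genes of 10 or more counts), so each was used as a separate library.

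Genes were filtered with filterByExpr (count 10, total 15), scaled by TMM and tested with edgeR 4.0.16 (robust quasi-likelihood, R 4.3.3, limma 3.58.1), with Benjamini-Hochberg adjustment over all genes at 0.05. SE is the absolute log2 fold change over the square root of F, and 95% intervals use the fit's degrees of freedom. Log2 CPM used a prior count of 2. Gene coordinates, lengths and GC content came from GENCODE M21 (GRCm38); 25 tested genes had no GC value and were not corrected by the lowess fit (span 0.3).

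The members and lists were chosen with earlier results of these data known. The text names the 9 members, Nr3c1, up to 4 called genes per list (1 called pathway gene is not reported here) and the genes most like the 2 members of smallest p (predicted and unnamed genes and members skipped); Ppp3cc, Ppp3r2, Rcan3, Wdr92, Esrp2, Myoz1, Stim1, Gsk3b, Myh7 and Myh2 were added after their values were seen. Alternatives were other scalings and filters, DESeq2 1.42.0, limma-voom, GC correction and each library left out; the fit without E and G was added after the data were seen.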

Additional observations from a re-analysis of the deposited data

Results flagged for a closer look

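Rcan1 in library F, labelled knockout, was at 102 CPM while the other 3 libraries of its group were at 122 to 126 CPM. Its gap to the nearest of them, divided by the range of the group, was 0.838, above Dixon's 95% critical value for 4 samples. In all, 18 groups of 4 values (9 genes in 2 groups) were examined in this way, and chance flags about 1 in 20 such groups.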

How the results depend on the processing

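Ppp3ca, Ppp3cb, Ppp3r1, Rcan1 and Nfatc3 kept their direction in all 17 alternatives, and Rcan2, Nfatc1, Nfatc2 and Nfatc4 were called in none. Over all genes, 1243 were called (594 higher, 649 lower), against 2026 with DESeq2 (1087 higher), 1871 with limma-voom (903 higher), 683 with the GC trend removed (322 higher, 361 lower), 226 without libraries E and G (109 higher, 117 lower) and 373 to 1794 with 1 library left out (147 to 855 higher, 226 to 939 lower). Scaling to library size alone gave 936 higher and 405 lower, moved the median of all genes to 0.06 and raised the share of calls that were higher from 47.8% to 69.8%. Of the 9 members 1 was called, higher, against 2 with DESeq2 size factors or upper-quartile scaling, 3 with library size alone, no filter, a CPM filter, DESeq2 or limma-voom, 0 with the GC trend removed or without E and G, and 0 to 3 with 1 library left out. Pathway genes called higher numbered 6 with library size alone, 5 with no filter or DESeq2, 1 with the GC trend removed, 0 without E and G and 2 to 5 with 1 library left out; those called lower numbered 5 with limma-voom, 0 without E and G and 1 to 5. Slow fibre genes called lower numbered 3 with DESeq2 or limma-voom, 0 without E and G and 1 to 2 with 1 library left out. Fast fibre genes called lower numbered 3 with DESeq2, limma-voom or upper-quartile scaling, and 1 with library size alone. With the GC trend removed or without E and G they numbered 0, and with 1 library left out 0 to 2. In the control libraries and those labelled knockout, respectively, the share of Ppp3ca was 40.5% and 38.7% without length correction, that of Ppp3cb 58.8% and 61.6% by longest transcript, and that of Ppp3cc 6.68% and 5.33% by longest transcript and 4.10% and 3.27% without length correction. The cause of these differences was not tested.

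No paired analysis was possible because the count columns carry no replicate number that a label gives. Nfatc4, with 122 to 226 counts per library, had the fewest counts of the 9 genes.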
